A study of Arabidopsis thaliana with 6 samples.

Results

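The genes AT4G20830, AT4G20860, AT1G26420 and AT1G30700 of the Arabidopsis thaliana berberine bridge enzyme-like family were followed in leaves sprayed with the detergent Tween 20 or with water. They are 4 of the 13286 genes that had a probe set annotated with 1 gene on the array, and each had 1 such probe set. They were chosen with their signals and their Tween 20 over water folds already known, so those values are given as a description, with no test.

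Berberine bridge enzyme-like proteins are secreted flavoproteins that carry covalently bound FAD. Many of them, though not all, pass electrons from their substrate to oxygen, with hydrogen peroxide as the by-product. The family is named after an enzyme of alkaloid synthesis in poppies and their relatives, while members in Arabidopsis are known to oxidise cell wall oligosaccharides and monolignols. AT4G20830 encodes an oligogalacturonide oxidase, which acts on pectin fragments, and AT4G20860 encodes a cellodextrin oxidase, which acts on cellulose fragments. Oligosaccharides of this kind are released from damaged walls and act as elicitors of plant defence, and oxidation lowers their eliciting activity.

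The Tween 20 plants were Col-0, 28 days old and grown in sterile jars, and were sprayed with 1.6 mM (0.2%) Tween 20, a non-ionic detergent. The control plants were of the same ecotype and age and were sprayed with distilled water. Experiments IA and IB repeated each other, with leaves collected 1 h after spraying, and experiment II had leaves collected at 2.5 h. Every experiment gave 1 Tween 20 array and 1 water array. Each array carried RNA pooled from 3 extracts, with 33 plants per experiment, so the spread between extracts is hidden, and precision is limited by there being 6 arrays. For IA the treatment text of the labels gives 2.5 h, and for Tween 20 samples it speaks of water. The groups therefore rest on the titles and the design text.

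Values are MAS5 signals, on a linear scale in arbitrary units, and a fold is the Tween 20 signal over the water signal of the same experiment. Array medians ran from 36.55 to 40.5 units. The 40th percentile of an array, at 20.6 to 23.9 units, is the mark under which a signal is called dim. The leaf label was borne out by the mesophyll markers RCA, the Rubisco activase, and LHCB4.1, a light-harvesting protein. They were the only 2 of 10 listed that had a probe set annotated with 1 gene. Their summed signal was 7202 to 8039 units on Tween 20 arrays and 6962 to 8748 units on water arrays. The root hair gene EXPA7 was the only 1 of 10 root markers with such a probe set. It was dim throughout, at 8.2 to 17.1 units with Tween 20 and 7.1 to 13.8 units with water. The guard cell gene FAMA, 1 of 6 listed, had 34.7 to 72.4 units with Tween 20 and 37.1 to 70.5 units with water, and the trichome gene TRY, 1 of 4 listed, had 12.1 to 22.9 units with Tween 20 and 15.4 to 28.4 units with water.

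AT4G20830, the oligogalacturonide oxidase, stood a little over 2-fold above water in every experiment. Its signals were 785.3, 798.1 and 535.4 units with Tween 20 in IA, IB and II, against 344.6, 346.0 and 256.8 units with water. The Tween 20 and water arrays did not overlap, and IA and IB were nearly alike in both treatments while II was lower in both. The folds were 2.28, 2.31 and 2.08 (mean log2 fold 1.15 ± 0.08, SD, n = 3). It was the only 1 of the 4 genes at 2-fold or more in all 3 experiments, a pattern met by 29 of the 14345 probe sets tested (0.202%). Among those 29, the SD of its 3 log2 folds was the 2nd smallest. The gene was chosen with these folds known, so nothing is read from this rank or share. In leaf RNA, a signal that differs between arrays can reflect more RNA per cell or more cells of a type, and these cannot be told apart.

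AT4G20860, the cellodextrin oxidase, had its high folds in IA and II. Its signals were 1002.8, 337.1 and 654.1 units with Tween 20 in IA, IB and II, against 236.6, 260.6 and 279.0 units with water. The water arrays lay close together, so the difference between experiments was in the Tween 20 arrays, of which IA was highest and IB only just above the water range. IA had a fold of 4.24, IB of 1.29 and II of 2.34 (mean log2 fold 1.23 ± 0.86, SD, n = 3). The SD over the 1 h repetitions alone was 1.21 on the log2 scale, as large as their mean of 1.23.

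On the signals as deposited, AT1G30700, a family member for which no substrate is stated here, had the fold that varied most between the repetitions. Its signals were 118.4, 54.1 and 51.1 units with Tween 20 in IA, IB and II, against 15.9, 33.1 and 22.5 units with water. All 3 Tween 20 arrays were above all 3 water arrays, with the highest Tween 20 signal and the lowest water signal both in IA. The folds were 7.45, 1.63 and 2.27 (mean log2 fold 1.60 ± 1.15, SD, n = 3). The water signals of IA and II were dim, and with the 40th percentile of the array in their place the folds were at least 5.36 in IA and at least 2.15 in II. With 16 units added to every signal before the logarithm, the fold in IA was 4.21. On that scale the log2 folds of AT1G30700 in IA and IB were 2.07 and 0.51. Those of AT4G20860 were 2.01 and 0.35, a wider gap, so AT1G30700 no longer varied most.

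AT1G26420, which lies in a run of family genes described further on, had its highest fold in IB. Its signals were 36.3, 39.1 and 50.7 units with Tween 20 in IA, IB and II, against 22.4, 13.3 and 29.0 units with water. The groups did not overlap, and the high fold in IB came with a low, dim water signal, while the Tween 20 signals of IA and IB differed little. The folds were 1.62, 2.94 and 1.75 (mean log2 fold 1.02 ± 0.47, SD, n = 3). Against the 40th percentile of the array in place of the dim water signal the fold in IB was at least 1.90, and with 16 units added to each signal its log2 fold was 0.91 instead of 1.56.

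**Figure D1:**
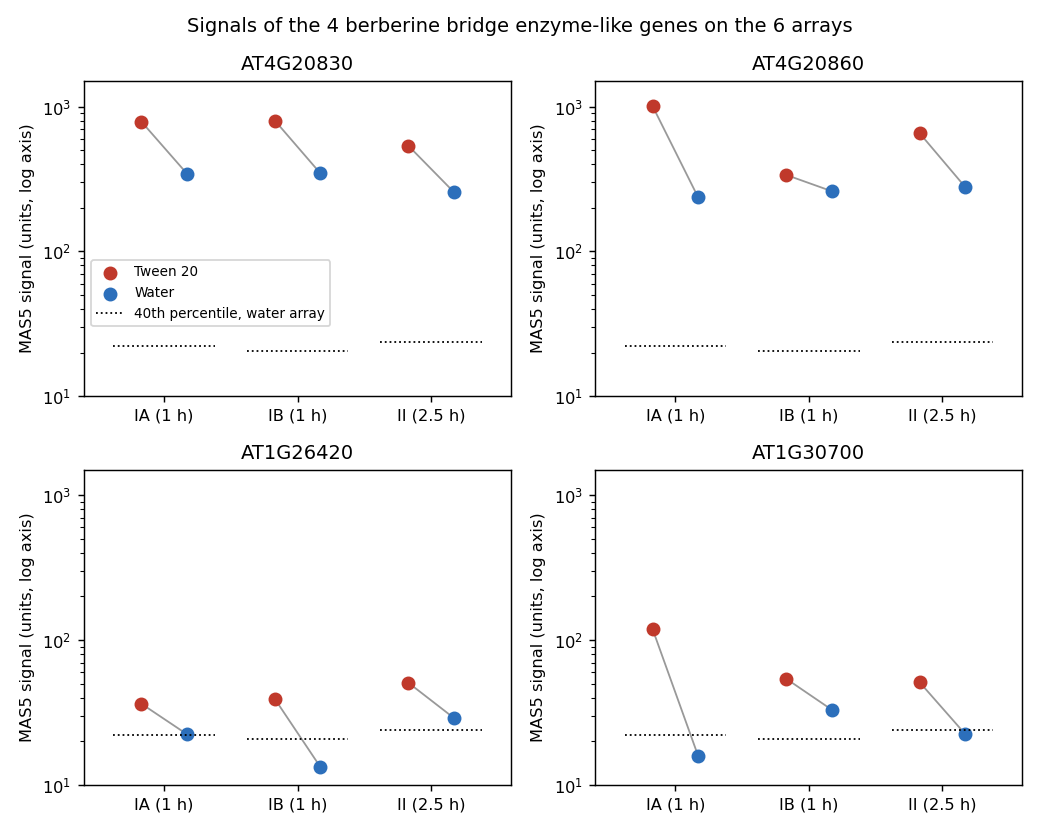
Signals of the 4 genes in each experiment, in MAS5 units on a log axis, with Tween 20 (red) left of water (blue) and a grey line joining the arrays of an experiment. Dotted lines mark the 40th percentile of the water array (20.6 to 23.8 units); all 12 Tween 20 points lie above it, and 3 of the 12 water points lie below it, 2 of AT1G30700 and 1 of AT1G26420.

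The 4 genes were higher with Tween 20 in each of the 3 experiments, as were 15.2% of probe sets tested, while 23.6% were lower in each. In all 4 the Tween 20 arrays lay above every water array, as in 4.56% of probe sets tested, and 3.31% had all Tween 20 arrays below. Since the genes were chosen on these values, nothing is read from the counts. On the signals as deposited, a fold of at least 2 was reached by 3 of the 4 in IA, by 2 in IB and by 3 in II, against 3.77%, 1.7% and 1.08% of probe sets tested with the brighter signal not dim. In IA the median log2 fold was 1.64 over the 4 genes and -0.08 over all probe sets tested. It was 0.96 against -0.03 in IB, and 1.12 against -0.02 in II.

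The order of the 4 folds was not the same in the repetitions. In IA AT1G30700 came first, followed by AT4G20860, AT4G20830 and AT1G26420, while in IB AT1G26420 came first, followed by AT4G20830, AT1G30700 and AT4G20860. The first place in IB rests on the dim water signal of AT1G26420: with the 40th percentile in its place the fold was at least 1.90, below the 2.31 of AT4G20830, and with 16 units added the log2 folds were 0.91 for AT1G26420 and 1.17 for AT4G20830. Only AT4G20830 kept nearly the same fold. In II the 4 folds lay between 1.75 and 2.34. AT4G20860 and AT1G30700 were 2-fold higher in IA and II but not in IB, as were 0.593% of probe sets tested, although with 16 units added the fold of AT1G30700 in II was 1.74. On the signals as deposited AT1G26420 was 2-fold higher in IB alone, as were 0.913%, but its fold there was under 2 both against the 40th percentile (1.90) and with 16 units added (1.88), which leaves AT4G20830 as the 1 gene at 2-fold in IB.

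Set among all 14345 folds of each experiment, the 4 genes ranked 39th (AT1G30700) to 958th (AT1G26420) from the top in IA. In IB they ranked 72nd (AT1G26420) to 1683rd (AT4G20860), and in II 72nd (AT4G20860) to 317th (AT1G26420). The widest shift was that of AT4G20860, at percentile 99.3 in IA, 88.3 in IB and 99.5 in II. AT4G20830 held percentiles of 97.3, 98.8 and 99.0. These ranks describe the values on which the genes were chosen, and nothing is read from them.

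**Figure D2:**
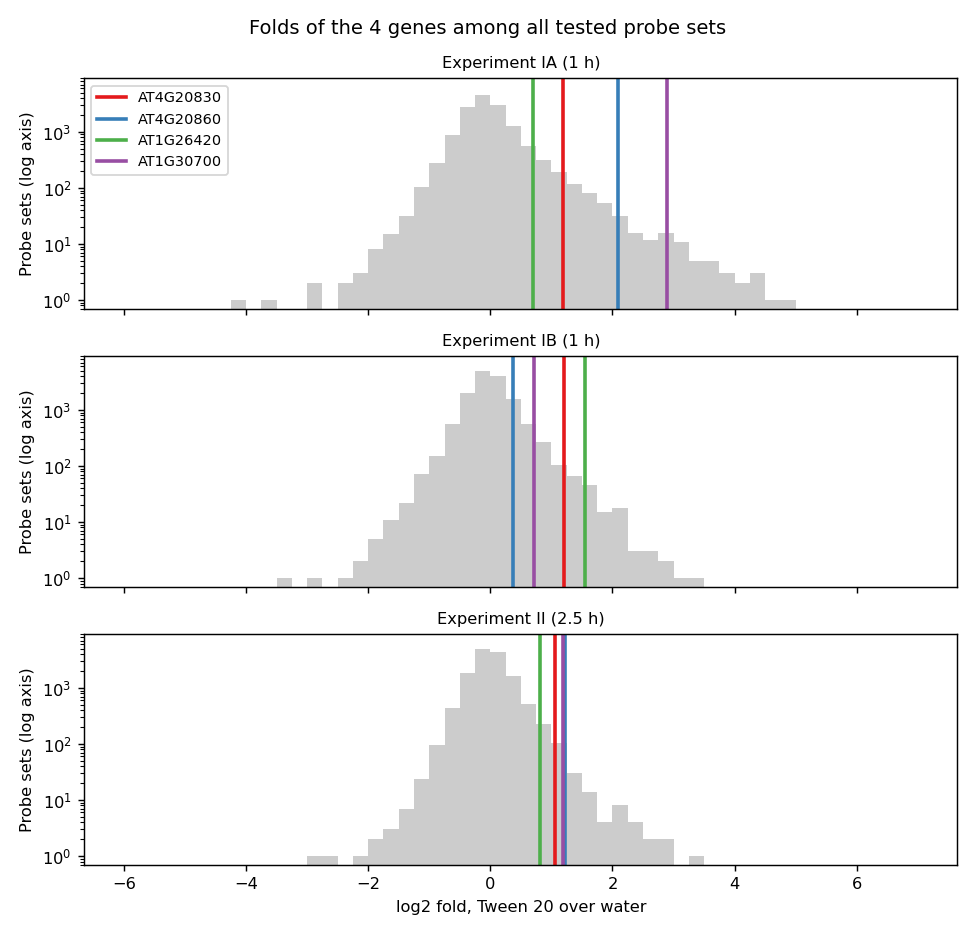
Number of tested probe sets (grey bars, log axis) by log2 fold of Tween 20 over water in IA, IB and II, with a coloured line for each of the 4 genes. In IA the lines spread from 0.70 to 2.90, in IB from 0.37 to 1.56, and in II they stand together between 0.81 and 1.23.

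The 4 profiles over the 6 arrays were alike only in part. Pearson's r of log2 signal between pairs of these genes was 0.88 for AT4G20860 with AT1G30700, 0.85 for AT4G20830 with AT1G30700 and 0.69 for AT4G20830 with AT4G20860. With AT1G26420 it was 0.65 for AT4G20860, 0.59 for AT4G20830 and 0.51 for AT1G30700. These values describe 6 arrays that share their experiments, and the choice of genes that stood above water favours positive ones.

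The water signals were among the values known when the genes were chosen, and 2.5 h has 1 water array, so the times are set side by side with no test for the 4 genes. Between 2.5 h and 1 h the log2 difference in water-sprayed leaves was -0.43 for AT4G20830, 0.17 for AT4G20860, 0.75 for AT1G26420 and -0.03 for AT1G30700. Over all 14345 probe sets, 0 passed limma's test of this difference (0.0% in either direction), and 333 had an unadjusted p under 0.05. For AT4G20830 the water array of II differed from that of IA by -0.42 and from that of IB by -0.43 on the log2 scale, whereas for AT1G30700 the differences were 0.50 and -0.56, of opposite sign. Time and experiment II cannot be told apart here.

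The Tween 20 arrays can be set against each other in the same way, with no test. The Tween 20 signal of AT4G20860 in II differed from that in IB by 0.96 on the log2 scale and from that in IA by -0.62, so that the signal at 2.5 h lay between the repetitions at 1 h. For AT1G30700 the Tween 20 signal in II differed from that in IA by -1.21 and from that in IB by -0.08. AT1G26420 was brightest in II under both treatments, with Tween 20 differences of 0.48 from IA and 0.37 from IB, and AT4G20830 was dimmest in II under both, with -0.55 and -0.58.

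The family list held 27 genes, of which 23 are not among the 4. A probe set annotated with 1 gene was at hand for 18 of these 23, and 5 of the 18 were bright enough to be tested. Of these 5, 0 rose and 0 fell in limma's paired test over the 3 experiments, in which 1.02% of all probe sets rose and 0.105% fell. In the same test 0 of the 5 had an unadjusted p under 0.05, against 2252 of all 14345 probe sets. Their median log2 estimate was 0.07, against -0.04 for all probe sets tested. Because the 4 genes were picked from the family for their folds, the gap between them and the rest is fixed by that choice and was not tested.

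Among the tested family genes, AT5G44390 came closest to a difference, with 31.1, 51.2 and 51.1 units with Tween 20 in IA, IB and II, against 31.5, 38.1 and 31.8 units with water (log2 estimate 0.36 ± 0.17, SE, limma adjusted p = 0.368). AT5G44400, bright on all arrays, had 258.6, 223.3 and 206.4 units with Tween 20 and 233.2, 169.9 and 207.1 units with water (0.18 ± 0.12, adjusted p = 0.525). Tween 20 and water arrays overlapped in both.

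The other tested members had estimates on either side of 0. AT5G44410 had an estimate of -0.22 ± 0.15 and AT5G44380 one of -0.10 ± 0.17. AT2G34810, the remaining gene, was at 93.7, 63.3 and 63.0 units with Tween 20 in IA, IB and II and at 72.7, 81.3 and 54.2 units with water (0.07 ± 0.16). Adjusted p-values of these 3 in limma's test were 0.522, 0.823 and 0.872.

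**Figure D3:**
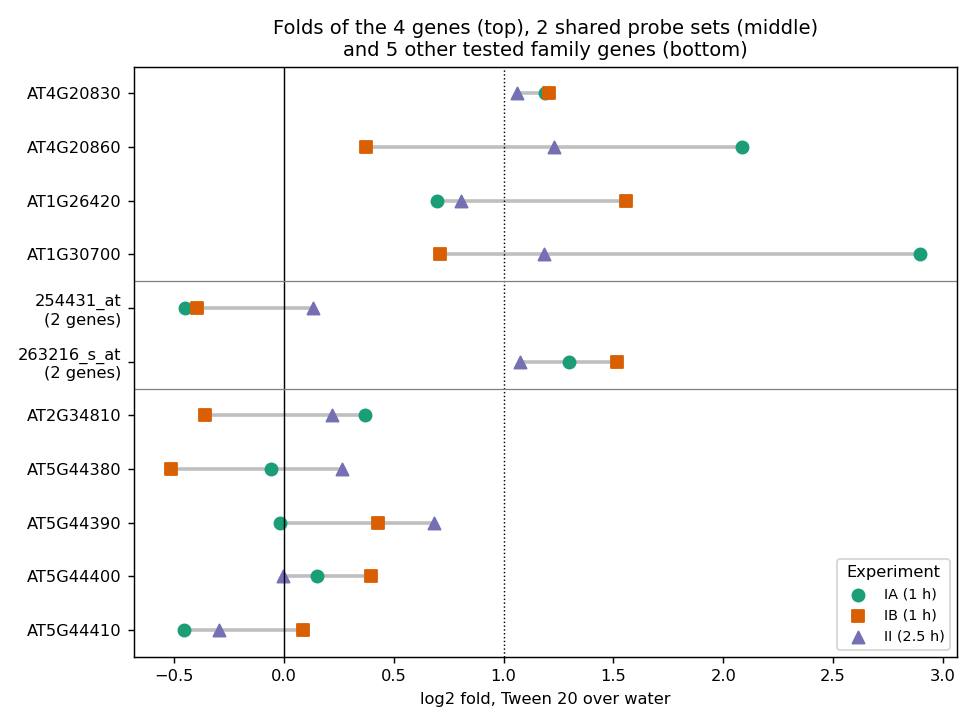
Log2 fold of Tween 20 over water in IA (circles), IB (squares) and II (triangles), with a grey bar over the range, for the 4 genes, 2 probe sets annotated with 2 family genes each, and 5 other tested family genes. The dotted line marks 2-fold; AT4G20830 and the probe set 263216_s_at lie beyond it in every experiment, and none of the 5 other genes reaches it.

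Probe sets annotated with more than 1 family gene numbered 2, with 2 such genes each, and they name no single gene. The probe set 263216_s_at, whose 2 genes are both outside the 4, had 212.7, 221.4 and 164.7 units with Tween 20 in IA, IB and II, against 86.4, 77.3 and 78.3 units with water. Its arrays did not overlap, and all 6 signals were well above the dim range. It rose 2.46-fold in limma's paired test over the 3 experiments (SE 0.13 on the log2 scale, adjusted p = 0.0200, higher in 3 of 3 pairs). The call was lost without IA (adjusted p = 0.0849), without II (0.0673), with no filter on dim signals (0.122), without the variance trend (0.0696) and with no replicate block (0.382).

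The probe set 254431_at was annotated with AT4G20830 together with a second family gene, AT4G20840, and it did not follow the probe set of AT4G20830 alone. It had 30.7, 42.1 and 51.2 units with Tween 20 in IA, IB and II, against 42.0, 55.5 and 46.8 units with water. Tween 20 was thus the lower of the pair in IA and IB and the higher in II, with log2 folds of -0.45, -0.40 and 0.13 (estimate -0.24 ± 0.16, SE, limma adjusted p = 0.521). The values given for AT4G20830 therefore rest on 1 probe set, and which transcript 254431_at measures was not tested.

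The 4 genes lie in 3 groups of family genes along the genome. In the order of protein-coding genes, AT1G26420 is the 5th and last of 5 consecutive family genes, and AT1G30700 is the 1st of 5. AT4G20830 and AT4G20860 are separated by 3 coding genes. These groups hold 12 further family genes, and 9 of them had a probe set of 1 gene. The signals of 8 of those 9 were dim on all 6 arrays, namely AT1G26390, AT1G26400, AT1G26410, AT1G30710, AT1G30740, AT1G30760, AT4G20800 and AT4G20820. AT1G30760 encodes a monolignol oxidase. The 9th, AT1G26380, which acts in the synthesis of an indole-derived cyanogenic defence compound, was not dim on 1 array. AT1G30720, AT1G30730 and AT4G20840 had no probe set of 1 gene, so nothing is stated on their levels as single genes. AT4G20840 is the second gene in the annotation of 254431_at. Probe sets of several genes are left out of these counts. Among them, 263216_s_at and 254431_at, each annotated with family genes, were dim on no array. Whether the genes of 263216_s_at lie in these groups is not stated here. The groups are therefore not shown to be dim apart from the 4 genes. AT1G11770, AT1G34575, AT5G44360 and AT5G44440, outside these groups, were dim on all arrays as well, and the highest signal among all 13 untested family genes was 32.1 units. A dim signal leaves the level of a transcript unknown, so no fold is given for these genes.

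**Figure D4:**
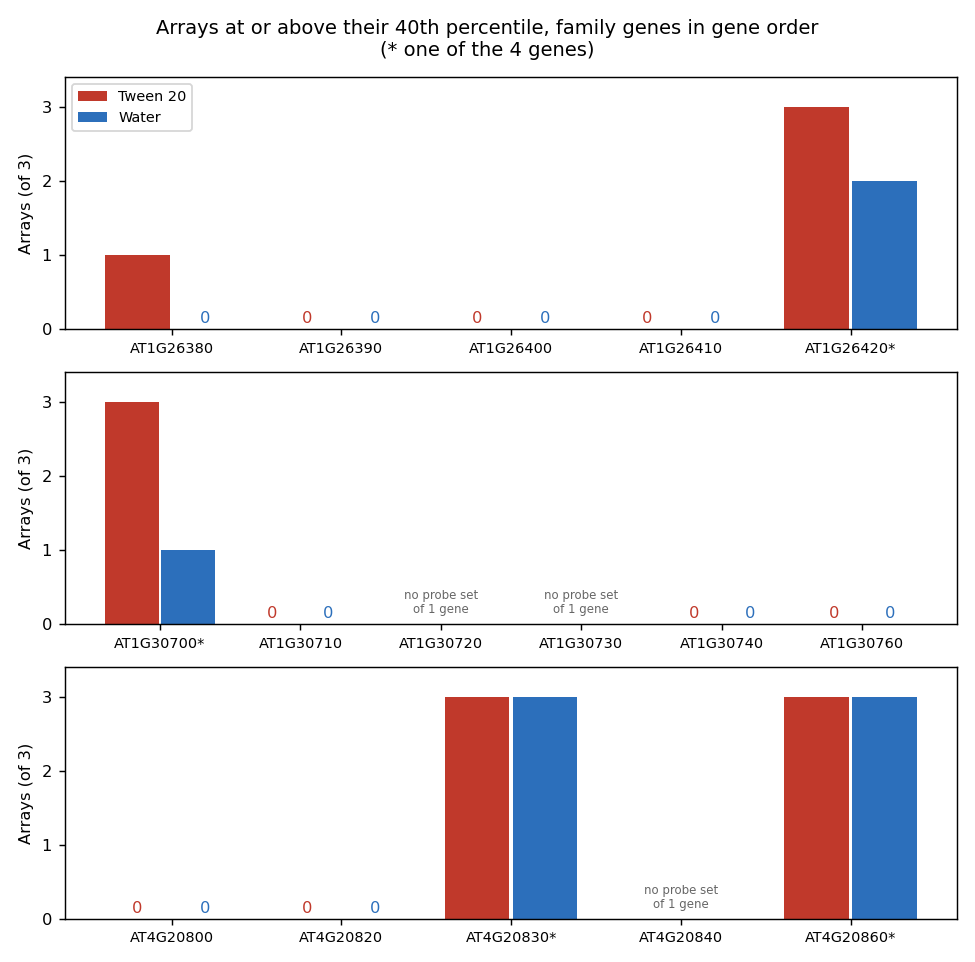
Number of the 3 Tween 20 arrays (red) and of the 3 water arrays (blue) on which the signal was at or above the 40th percentile of the array, for family genes in gene order in the 3 groups (not to scale; AT1G30760 is not directly next to AT1G30740). The 4 genes (asterisks) were at or above it on 3 Tween 20 arrays each and on 1 to 3 water arrays. Of the 9 other family genes with a probe set of 1 gene, 8 were at 0 of 6. Probe sets of several genes are not shown.

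Nearby genes outside the family were looked at in the same way. The 5 nearest genes with a probe set of 1 gene were taken on each side of the 4. They gave 31 genes besides the 4, of which 9 belong to the family. Of the 31, 13 were tested, all outside the family, and 1 rose and 0 fell in limma's paired test, against 1.02% and 0.105% of all probe sets. The gene that rose was CML42, a calmodulin-like calcium sensor lying on the AT4G20830 side, with 275.3, 188.9 and 92.4 units with Tween 20 in IA, IB and II against 77.4, 67.7 and 59.9 units with water (log2 estimate 1.31 ± 0.22, SE, adjusted p = 0.0493). Its call was lost under 8 of 10 other settings, among them median centring (adjusted p = 0.0719), and without IA (0.154) or II (0.0673).

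The other 12 tested neighbours did not pass. AT1G30690, directly before AT1G30700, had an estimate of -0.41 ± 0.13 (SE, limma adjusted p = 0.195), with 99.7, 46.4 and 99.6 units with Tween 20 and 129.3, 72.0 and 117.1 units with water. AT1G26520 had an estimate of -0.32 ± 0.14 (adjusted p = 0.329). Both were lower with Tween 20 in all 3 pairs, as were 23.6% of probe sets tested. The median estimate of the 13 was -0.08, against -0.04 for all probe sets tested.

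For each of the 4 genes, the 3 tested genes of closest profile were found by Pearson's r of log2 signal over the 6 arrays, among 7711 other probe sets of 1 gene. Their own differences between treatments follow from that choice and were not tested. Many more profiles were close: 36 probe sets had r of at least 0.95 with AT4G20830 and 30 with AT4G20860. For AT1G26420 there were 11 and for AT1G30700 14, so the genes named are not singular partners. Closest to AT4G20830 were AT3G50900 (r = 0.990), AT4G16240 (0.989) and AT1G58420 (0.988). AT3G50900 had 232.3, 207.7 and 108.0 units with Tween 20 in IA, IB and II, against 53.5, 62.9 and 26.5 units with water. Like AT4G20830 it was alike in the repetitions and lower in II under both treatments, and its log2 folds were 2.12, 1.72 and 2.03.

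The profile of AT4G20860, high in IA and II with Tween 20 and flat elsewhere, was shared most closely by AT1G63720 (r = 0.997). AT1G63720 had 62.0, 30.0 and 46.0 units with Tween 20 in IA, IB and II, against 25.7, 27.0 and 28.3 units with water. AT3G05230, of the signal peptidase complex, followed (0.989), then AT5G56350, of the pyruvate kinase family (0.986). Their log2 folds in IA, 0.51 and 0.80, were smaller than that of AT4G20860, 2.08, so the likeness is one of shape and not of size.

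AT1G30700 was most like AT2G41730 (r = 0.997), AT4G13180 (0.984) and AT2G22880, which encodes a VQ-motif protein (0.981). AT2G22880 was dim on the water arrays of IA and II, at 7.7 and 10.8 units. AT2G41730 had 241.4, 109.8 and 110.5 units with Tween 20 in IA, IB and II, against 37.4, 70.3 and 55.7 units with water, and as in AT1G30700 its highest Tween 20 signal and its lowest water signal were both in IA. AT1G26420 was most like AT2G19130, an S-locus lectin receptor kinase gene (0.981), AT1G15800 (0.977) and AT1G65020 (0.975). Those 3 had log2 folds no higher than 0.73 in any experiment, below the 1.56 of AT1G26420 in IB.

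**Figure D5:**
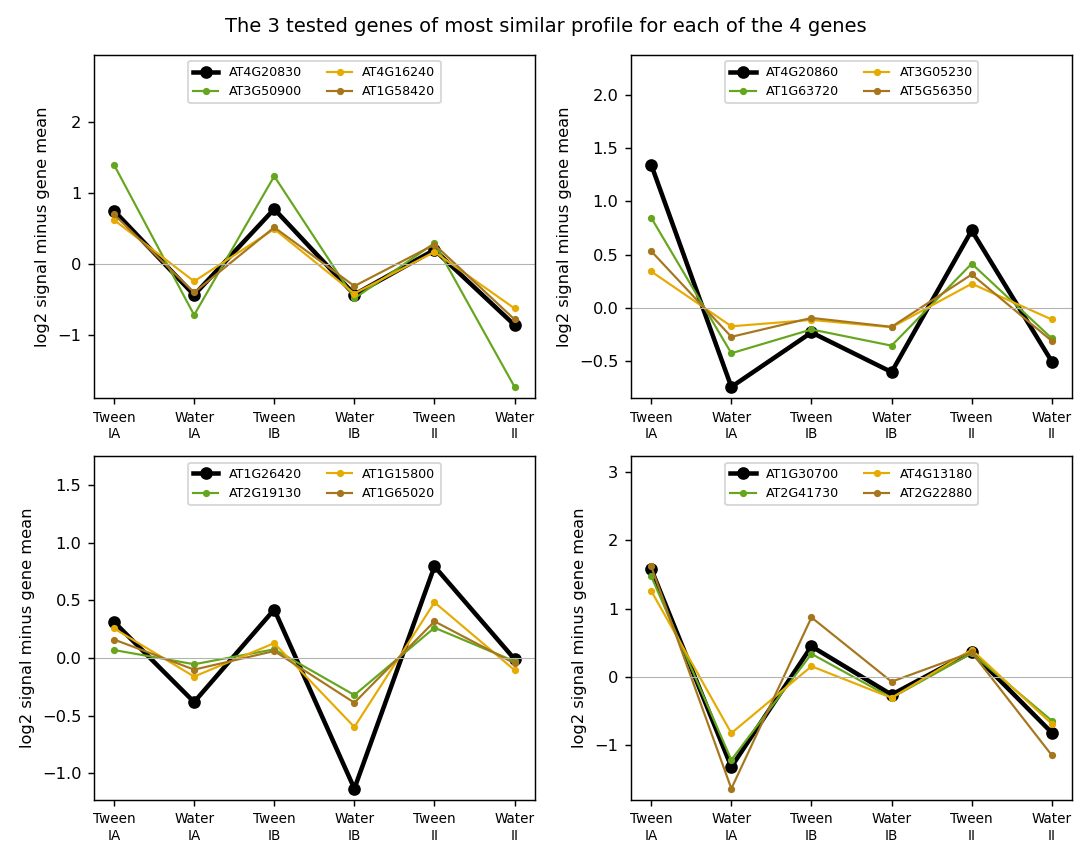
Log2 signal minus the mean of the gene over the 6 arrays, for each of the 4 genes (black) and the 3 tested genes of highest Pearson's r with it (coloured). The AT4G20830 panel shows IA and IB alike, the AT4G20860 and AT1G30700 panels peak at Tween 20 in IA, and the AT1G26420 panel has its lowest point at water in IB.

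Genes that act around these oxidases were described from lists of 16 to 22 genes, few of which had a probe set of 1 gene. The lists were drawn up with earlier results of these data known. Their counts are therefore a description, and nothing is read from them. Of 18 genes of pectin and cellulose breakdown and wall sensing, 6 were tested, and 1 rose and 1 fell in limma's paired test, against 1.02% and 0.105% of all probe sets, with a median estimate of -0.07. ATPMEPCRB (AT4G02330), a pectin methylesterase, rose 2.32-fold, with 410.1, 732.5 and 434.6 units with Tween 20 in IA, IB and II against 120.7, 473.3 and 183.3 units with water (1.21 ± 0.20, SE, adjusted p = 0.0473). The arrays overlapped, because IB was bright under both treatments. AT1G67750, of the pectate lyase family, fell, with 41.7, 52.1 and 62.3 units with Tween 20 and 110.1, 88.8 and 150.0 units with water, without overlap (-1.15 ± 0.15, adjusted p = 0.0288). The call of ATPMEPCRB was lost with median centring (adjusted p = 0.0677) and quantile normalization (0.0590). Both calls were lost with no filter (0.236 for ATPMEPCRB and 0.161 for AT1G67750), without the variance trend (0.109 and 0.0709) and with no replicate block (1.00 and 0.487). They were also lost without IA (adjusted p = 0.131 for ATPMEPCRB and 0.112 for AT1G67750) and without II (0.199 and 0.131).

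The polygalacturonase gene AT1G48100 had an estimate of -0.52 ± 0.16 (limma adjusted p = 0.204). The 3 wall sensors among the 6 lay near 0. The receptor kinase FER was at -0.02 ± 0.11, THE1 at 0.04 ± 0.14, and AT1G56145, a receptor kinase for cellulose fragments, at -0.13 ± 0.21.

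Of 22 genes of the response to elicitors, 3 were tested and 0 passed, with an unadjusted p under 0.05 for all 3 and a median estimate of 0.76. Over all probe sets 2252 of 14345 had an unadjusted p under 0.05 in the same fit. The transcription factor WRKY22 was at 1.05 ± 0.20 (SE, limma adjusted p = 0.0665) and WRKY53 at 0.76 ± 0.14 (adjusted p = 0.0673). The receptor-like cytoplasmic kinase BIK1 was at 0.58 ± 0.20 (adjusted p = 0.233). The log2 fold of BIK1 was 0.95 in IA and 0.83 in II but -0.04 in IB. Without IB all 3 passed (adjusted p = 0.00549 for WRKY22, 0.0460 for WRKY53 and 0.00771 for BIK1), in a fit where 574 probe sets rose in place of 146. None passed without IA (0.162, 0.103 and 0.737) or without II (0.203, 0.255 and 0.549).

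Of 16 genes of hydrogen peroxide production and removal, 2 were tested and 0 passed in limma's paired test. Over all probe sets tested 1.02% rose and 0.105% fell. The peroxidase gene AT5G64120 was at 0.16 ± 0.11 (SE, limma adjusted p = 0.530), and the peroxidase PRX52 was at -0.08 ± 0.21 (0.901). Of 20 genes of monolignols and lignin, 4 were tested and 0 passed, with a median estimate of 0.25. In limma's paired test 2 of the 4 had an unadjusted p under 0.05, against 2252 of all 14345 probe sets. UGT72E1, which glucosylates monolignols, was at 0.44 ± 0.12 (adjusted p = 0.146), the cinnamoyl-CoA reductase CCR2 at 0.72 ± 0.23 (0.206) and the acyltransferase HCT at -0.14 ± 0.10 (0.533). The list of 18 genes of indole defence compounds had 0 genes with a probe set of 1 gene and was not analysed here.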

How the data were processed

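The authors deposited linear signal intensities per probe set, and per the submitters' processing notes MAS5 produced them; no version of it was at hand. Signals were used as deposited, with values under 0.1 set to 0.1 before log2. Of 22810 probe sets, 64 controls were left out, and 14345 that reached the 40th percentile of their array on at least 2 of 6 arrays were tested. Genes were named only from the 13513 probe sets with 1 gene in the platform annotation, 13436 of which matched a locus of RefSeq's TAIR10.1 table, used for names and gene order only; 503 had several genes and 8730 none. No sequence comparison was made.

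Tests of treatment used limma 3.58.1 (R 4.3.3) with the experiment as a block and a variance trend on signal, and p-values were adjusted by Benjamini-Hochberg (threshold 0.05), leaving 2 residual degrees of freedom. In a pairing check, arrays of the same experiment deviated together (r = 0.576, 0.714 and 0.711 in IA, IB and II); the pairing itself comes from the titles. The water times were compared in a fit of 4 groups. p-values measure the spread between pooled arrays only. The fitting code was tested on simulated data. Genes were named by a rule: the 4 genes, all other family genes with a probe set, the 3 most similar profiles for each of the 4, and the 3 largest moderated t of each list and of the neighbours; AT1G56145, FER and THE1 were named after their values were seen. The 4 genes and the lists were chosen with earlier results of these data known.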

Additional observations from a re-analysis of the deposited data

Results flagged for a closer look

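The probe set 263216_s_at, annotated with 2 family genes and so outside the comparison of single genes, had a mean signal of 199.6 ± 30.5 units with Tween 20, against 80.7 ± 4.99 units with water (SD, n = 3 each). In 3 tested probe sets of the family, other than the single-gene probe sets of the 4 genes, folds at 2.5 h and 1 h were opposite in sign. Both folds at 1 h had the other sign, and these differences between times were not tested. The share of all probe sets with this pattern was not computed, so nothing is read from the count. Of all probe sets tested, only 15.2% were above water in all 3 pairs and 23.6% below. AT5G44380 was at a log2 fold of 0.26 in II, against -0.06 in IA and -0.51 in IB. The probe set 254431_at, annotated with AT4G20830 and AT4G20840, was at 0.13 in II, against -0.45 and -0.40. AT5G44400 was at -0.0049 in II, which is next to no difference, against 0.15 and 0.39.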

How the results depend on the processing

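All 12 folds of the 4 genes kept their sign under quantile normalization and median centring. Adding the same 16 units to both signals of a pair cannot change a sign, so that setting says nothing on it. Under these 3 settings 1 fold moved by more than the SD of the gene's 3 folds. That was AT1G26420 in IB, to 0.91 with 16 units added. The SD of AT1G30700 was wide, at 1.15. Its log2 fold in IA therefore did not count as moved when 16 units took it from 2.90 to 2.07. The counts used as background were less stable. Over the 3 experiments 146 probe sets rose in limma, and the counts under other settings, whose overlap with the 146 was not computed, were 87 with median centring, 0 with no filter (2567 in either direction at an unadjusted p under 0.05), 1 without the variance trend and 0 with no replicate block (614 at an unadjusted p under 0.05). Leaving out 1 pair gave 0 to 574, with 574 without IB and 0 without IA (1215 at an unadjusted p under 0.05) or II (1691). At 1 h alone 0 rose (1691 probe sets at an unadjusted p under 0.05), against 8 with a filter at the 60th percentile, 6 with median centring and 97 with quantile normalization. Over the whole table, the 587, 260 and 165 probe sets 2-fold higher in IA, IB and II became 1819, 1479 and 1275 with no filter and 378, 142 and 65 with 16 units added, and 89 in II with the filter at the 60th percentile. The causes were not tested. For the water times no block for experiment could be fitted, because time and experiment coincide, and 0 probe sets passed in limma under any setting run, including the water arrays alone (333 at an unadjusted p under 0.05 as reported).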

Other observations

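AT1G26380 lay below the filter on dim signals, but its 3 Tween 20 signals, 21.1, 32.1 and 15.4 units in IA, IB and II, were above its 3 water signals of 14.3, 11.5 and 13.6 units. AT4G20800 ran the other way, at 1.1, 1.4 and 0.9 units with Tween 20 against 6.3, 4.2 and 2.4 units with water. Signals this low carry much noise, and neither gene was tested.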
